A study of Mus musculus with 6 samples.

Results

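Accessible chromatin was examined around 4 genes of retinoic acid signalling, Cyp26a1, Cyp26b1, Rarb and Rara, in mouse embryonic stem cells exposed to retinoic acid. The members are all regions of the deposited ATAC-seq list that overlap a fixed window around each gene, in mm9 coordinates: chr19:37470000-38070000 for Cyp26a1, chr6:84220000-84820000 for Cyp26b1, chr14:16960000-17710000 for Rarb and chr11:98490000-99090000 for Rara. This gave 687 of the 495233 regions of the list, with 179 around Cyp26a1, 179 around Cyp26b1, 137 around Rarb and 192 around Rara. The choice used position alone, not the score of a region or the level of an RNA.

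ATAC-seq uses the Tn5 transposase, which inserts adapters into open DNA, so that sequenced fragments collect at accessible sites. The ATAC-seq group held 3 samples and the RNA-seq group 3 further samples of polyadenylated RNA, all from the R1 line. R1 cells were kept in 15% serum replacement with 1000 U/ml LIF, gathered as embryoid bodies in hanging drops for 48 h, and exposed to retinoic acid, at 0.5 mM as the labels state it, until day 6. Every sample shares this treatment and no untreated sample was analysed here, so the values are levels and no change can be read from them. The region list is joint for the 3 ATAC-seq samples, with 1 score a region, so regions have no spread over replicates. The score is the authors' own value on a scale that no label or header states, and it is used below only to describe and rank regions inside this list. Its differences and ratios have no stated meaning.

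The labels call the cells mouse embryonic stem cells, but at day 6 most of a list of defining stem cell genes were low. Of 6 such genes, 2 reached 1 FPKM (expression scaled to transcript length and sequencing depth) in every replicate, against 50.7% of all genes. These were Esrrb, at 6.26, 6.33 and 5.91 FPKM, and Zfp42, at 1.52, 2.54 and 2.36. Pou5f1 stood at 0.737, 0.814 and 0.895 and Nanog at 0.0595, 0.122 and 0.0818 FPKM, and the means of Tdgf1 and Dppa3 were 0.101 and 0.0375. All 6 neural progenitor and all 6 neuronal marker genes reached it, and so did all 8 markers of extraembryonic endoderm, the lineage of the yolk sac. In such bulk samples, fewer cells of a type and less RNA or accessibility per cell cannot be told apart.

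Retinoic acid is a small lipid signal that patterns the hindbrain and spinal cord of the embryo. It binds the nuclear receptors RARα, RARβ and RARγ, which sit with RXR partners on DNA at pairs of hexamers, most often direct repeats. Rara encodes RARα and Rarb encodes RARβ, and Rarb is a classical target of its own ligand. Cyp26a1 and Cyp26b1 encode cytochrome P450 enzymes that break retinoic acid down, and Cyp26a1 is a textbook case of feedback, since retinoic acid raises its transcription.

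The stretches before the starts of Cyp26a1 and Rarb are shown because both hold such a repeat. They are the 250 bases before the RefSeq start, read 5′ to 3′ on the gene's strand, in the build GRCm38.p6: chr19:37697558-37697807 on the plus strand for Cyp26a1 and chr14:16575477-16575726 on the minus strand for Rarb. Capitals mark the repeat with its spacer.
Cyp26a1: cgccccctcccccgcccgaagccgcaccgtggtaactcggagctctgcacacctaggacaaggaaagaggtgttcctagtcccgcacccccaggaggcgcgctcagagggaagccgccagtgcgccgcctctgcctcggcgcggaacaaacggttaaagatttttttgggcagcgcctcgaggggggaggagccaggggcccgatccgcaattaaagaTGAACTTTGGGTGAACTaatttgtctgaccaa
Rarb: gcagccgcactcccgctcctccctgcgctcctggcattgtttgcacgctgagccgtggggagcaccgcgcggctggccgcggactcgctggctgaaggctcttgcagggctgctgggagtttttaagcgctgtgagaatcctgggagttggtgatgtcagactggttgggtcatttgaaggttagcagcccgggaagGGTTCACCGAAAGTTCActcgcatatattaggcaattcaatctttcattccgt

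The motif searched was a direct repeat of the hexamer AGGTCA, its variant GGGTCA, the form AGTTCA or the form GGTTCA, in any pairing, with 1, 2 or 5 bases between them, on both strands. Each of these promoters held 1 repeat with a spacing of 5 bases. In Rarb it lies 53 to 37 bases before the start and reads along the gene. In Cyp26a1 it lies 32 to 16 bases before the start and reads on the opposite strand, so that the printed capitals are its reverse complement. Each element is given on its own strand, with the hexamers in capitals.
Cyp26a1 element: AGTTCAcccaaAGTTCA
Rarb element: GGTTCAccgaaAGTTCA
The elements share 15 of 17 bases. Counted from 1 at the 5′ end of the element, Rarb differs from Cyp26a1 by A1G, in the first hexamer, and by C9G, in the spacer, while the second hexamer is the same. Of 32851 RefSeq promoters of the same length (300 bases, 250 before to 50 after the start), 32 held such a repeat with a spacing of 5, or 0.0974%. The 4 promoters listed for Rara and the 1 listed for Cyp26b1 held no such repeat in that window. Among other genes, 14 of 20 of a retinoic acid list and 33 of 40 neighbouring genes had a promoter in the table, and none held the repeat with a spacing of 5. With a spacing of 2, 1 neighbour, Ide, held a repeat, and with a spacing of 1 none of these genes did. Over all promoters the shares were 0.268% and 0.222%. A match is a description of letters only. The regions are in mm9 and these promoters in another build, so whether a region covers an element, an exon or an intron was not analysed here.

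The windows around Rara, Cyp26a1 and Cyp26b1 held more regions than most of the genome, and the window around Rarb did not. This order did not hold close to the window midpoints. Rara had 32.0 regions per 100 kb, Cyp26a1 and Cyp26b1 29.8 each, and Rarb 18.3. Consecutive 600-kb pieces of the autosomes, 4015 in number, held a median of 126 regions, with quartiles of 68 and 177. The 192 regions at Rara exceeded 83.5% of these pieces, and the 179 at each Cyp26 gene 76.2%. The 137 regions at Rarb were fewer than the median of 157 in 3210 pieces of 750 kb, at percentile 41.8. Regions covered 21.0% of the bases around Rara, 16.8% around Cyp26b1, 13.9% around Cyp26a1 and 9.64% around Rarb, against a median of 9.42% in the 600-kb pieces and 9.46% in the 750-kb pieces. The covered share at Rara exceeded that of 95.5% of the pieces. Within 100 kb of the midpoint, Cyp26b1 had 39.0 regions per 100 kb, Rara 29.5, Rarb 27.0 and Cyp26a1 22.0, against a median of 20.5 in 12059 pieces of 200 kb. There Rarb lay above the median, at percentile 66.0, and Cyp26a1 was the lowest of the 4, at 53.5, with Cyp26b1 at 95.0 and Rara at 72.7. None of these differences was tested, because the list is joint and neighbouring regions are not replicates.

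Scores ordered the windows differently, with larger shares of high values at the receptor genes than at the enzyme genes. A score in the top 10% of the list (17.5 or more) was held by 10.0% of all regions. The share was 18.8% at Rara (36 of 192) and 17.5% at Rarb (24 of 137), against 9.50% at Cyp26a1 (17 of 179) and 8.94% at Cyp26b1 (16 of 179). Both Cyp26 windows thus lay near the background at this limit. Cyp26a1 also did so in the top 5%, while Cyp26b1 lay below the background there. In the top 5% of the list (background 5.0%) there were 3 regions at Cyp26b1 (1.68%) and 8 at Cyp26a1 (4.47%), against 15 at Rarb (10.9%) and 22 at Rara (11.5%). In the top 1% of the list (background 1.00%) there were 4 regions at Rarb, 3 at Rara and none at either Cyp26 gene. With 179 regions in each Cyp26 window, a count of 0 at this limit says little. Median scores were 5.84 for Rara, 5.64 for Rarb, 5.49 for Cyp26a1 and 5.42 for Cyp26b1, against 5.24 for the whole list. The receptor windows differed from the list in the upper part: the upper quartile was 13.0 at Rarb and 11.6 at Rara, but 7.94 at Cyp26a1 and 7.52 at Cyp26b1, against 7.77 in the list. The Rarb window thus combined the fewest regions with the highest single scores.

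**Figure D1:**
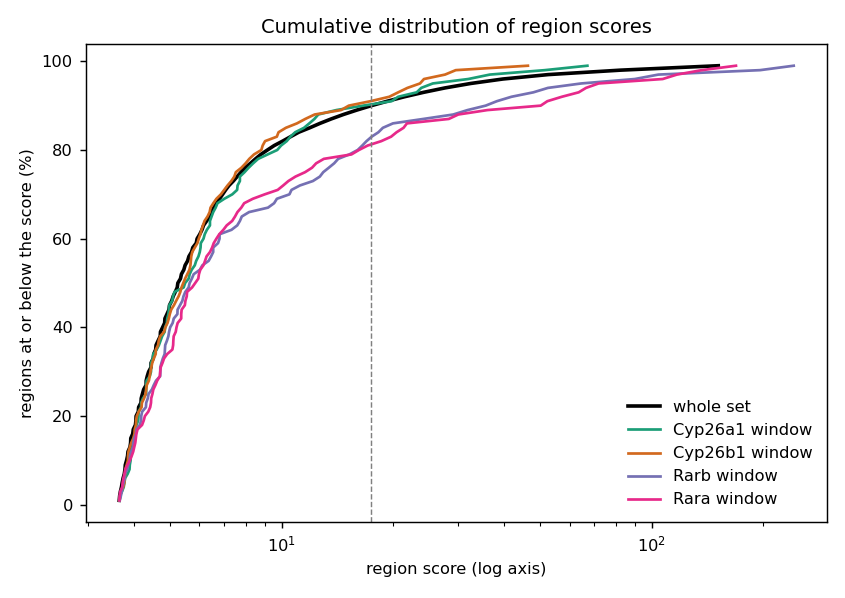
Cumulative share of regions (%) against region score (log axis) for each window and for the whole list, with the dashed line at the top 10% of the list. The Rara and Rarb curves run below that of the list over most of the range, since 18.8% and 17.5% of their regions lie beyond the line, while the Cyp26a1 and Cyp26b1 curves run near it up to the line and lie above it beyond, with 98th percentiles of 51.5 and 29.6 against 82.4 in the list.

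Around Cyp26a1, the feature at the centre was a compact group of regions with higher scores. A run of 12 regions, each at most 3 kb from the next, spanned 20.9 kb from -8.40 to 11.7 kb (positions are region centres from the window midpoint, negative towards the start of the chromosome). It held 5 of the 17 regions of the window in the top 10%, and its median score of 14.3 was the highest of the 10 such runs in that window. Its main region, chr19:37770851-37773899, was the longest of the window at 3049 bases and scored 64.6, exceeded by 2.48% of the list. The region nearest the midpoint, chr19:37769778-37770614, was 837 bases long and scored 32.5.

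Higher scores in the Cyp26a1 window stood far from the centre. The highest, chr19:37624502-37625649, lay at -145 kb with a score of 85.5 over 1148 bases. It was followed by chr19:37995261-37996286 at 226 kb, with 73.8 over 1026 bases, and chr19:37508381-37510267 at -261 kb, with 65.1 over 1887 bases. The main region of the central run ranked 4 in the window. The longest stretch without a region ran for 31.7 kb, from -85.2 to -53.5 kb. The shortest region, chr19:37729760-37729793, had 34 bases and a score of 3.73.

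Around Cyp26b1, accessibility was broad at the centre and the highest score lay outside it. The largest run of the window, 18 regions over 29.9 kb from -4.55 to 24.5 kb, was covered by regions over 53.7% of its length. It held a pair of very long regions side by side: chr6:84533145-84536258, of 3114 bases with a score of 30.7, and chr6:84536511-84540766, of 4256 bases with a score of 60.9. The latter was the longest region of the window. The highest score, 143, belonged to chr6:84589981-84591425, of 1445 bases at 70.7 kb, and was exceeded by 1.09% of the list. Next after these came chr6:84647266-84648305 at 128 kb, with 42.2 over 1040 bases, and chr6:84222106-84223376 at -297 kb, with 28.7 over 1271 bases. The region nearest the midpoint, chr6:84519580-84521399, was long (1820 bases) but scored only 11.7.

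The Cyp26b1 window was also uneven from side to side. Of its regions, 110 were centred left of the midpoint and 69 right of it. From 150 to 300 kb, 3 consecutive 50-kb bins held 5, 7 and 5 regions. None of them was in the top 10%, against 8.94% of the regions of the window and 10.0% of the list. With so few regions a count of 0 says little. The longest stretch without a region, 22.5 kb, lay there too, from 272 to 294 kb.

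Around Rarb, regions were few but some scored among the highest of the list. The highest score of all 4 windows, 364, belonged to chr14:17196572-17199323, of 2752 bases at -137 kb, and 0.0470% of the list scored higher. In its 50-kb bin there was just 1 other region. The next, chr14:17405184-17408771, was 3588 bases long, lay at 72.0 kb and scored 262, exceeded by 0.264% of the list. It belonged to the largest run of the window, 13 regions over 28.4 kb from 47.7 to 75.8 kb with a median score of 10.7. A close pair followed on the left side: chr14:17075121-17076836, with 207 over 1716 bases, and chr14:17081318-17082513, with 192 over 1196 bases, at -259 and -253 kb. The fifth, chr14:17279884-17281076 at -54.5 kb, scored 105 over 1193 bases. These scores describe the window and not Rarb itself. In GRCm38.p6 the listed promoters of Top2b and Ngly1 begin at chr14:16364956 and chr14:16249064, to the left of that of Rarb at chr14:16575427. Whether any of these regions covers a promoter of another gene was not tested.

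The longest region at Rarb, chr14:17684950-17688856, had 3907 bases and a score of 13.0, which ranked 35 of 137 in the window and was exceeded by 13.7% of the list. The region nearest the midpoint, chr14:17329732-17330330, scored 6.80 over 599 bases. Of the Rarb regions, 25.5% were in runs of at least 5, against 51.4% at Cyp26a1, 52.5% at Cyp26b1 and 65.6% at Rara. The median gap between neighbours was 2641 bases at Rarb, 1682 at Cyp26a1, 1512 at Cyp26b1 and 1424 at Rara. The widest gap of all 4 windows, 49.6 kb, lay at Rarb from 116 to 166 kb.

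Around Rara, strong and long regions stood mostly between -250 and 150 kb. The 50-kb bins from 150 to 300 kb held 0, 1 and 1 regions of the top 10%, and the bin from -300 to -250 kb held 0. The 5 highest scores were 225, 178, 168, 145 and 135. They belonged in that order to chr11:98670196-98671811 at -119 kb, chr11:98543063-98544518 at -246 kb, chr11:98885125-98885898 at 95.5 kb, chr11:98723960-98725922 at -65.1 kb and chr11:98768616-98769546 at -20.9 kb. The third was short for its score, with 774 bases. The region nearest the midpoint, chr11:98789023-98789967, scored 7.60 over 945 bases, and a stronger one, chr11:98797198-98799721, followed at 8.46 kb with 115 over 2524 bases. The run with the highest median score of all 4 windows, 36.1 over 9 regions, spanned 17.3 kb from -156 to -139 kb, and 6 of its regions were in the top 10%. The run with the most regions, 20 from 132 to 162 kb, had a median score of 5.55, between those of the list and of the window, and held 1 region of the top 10%. The longest stretch without a region ran for 36.7 kb, from 58.4 to 95.1 kb. The region bordering it on the left scored 7.92 and the one on the right 168.

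**Figure D2:**
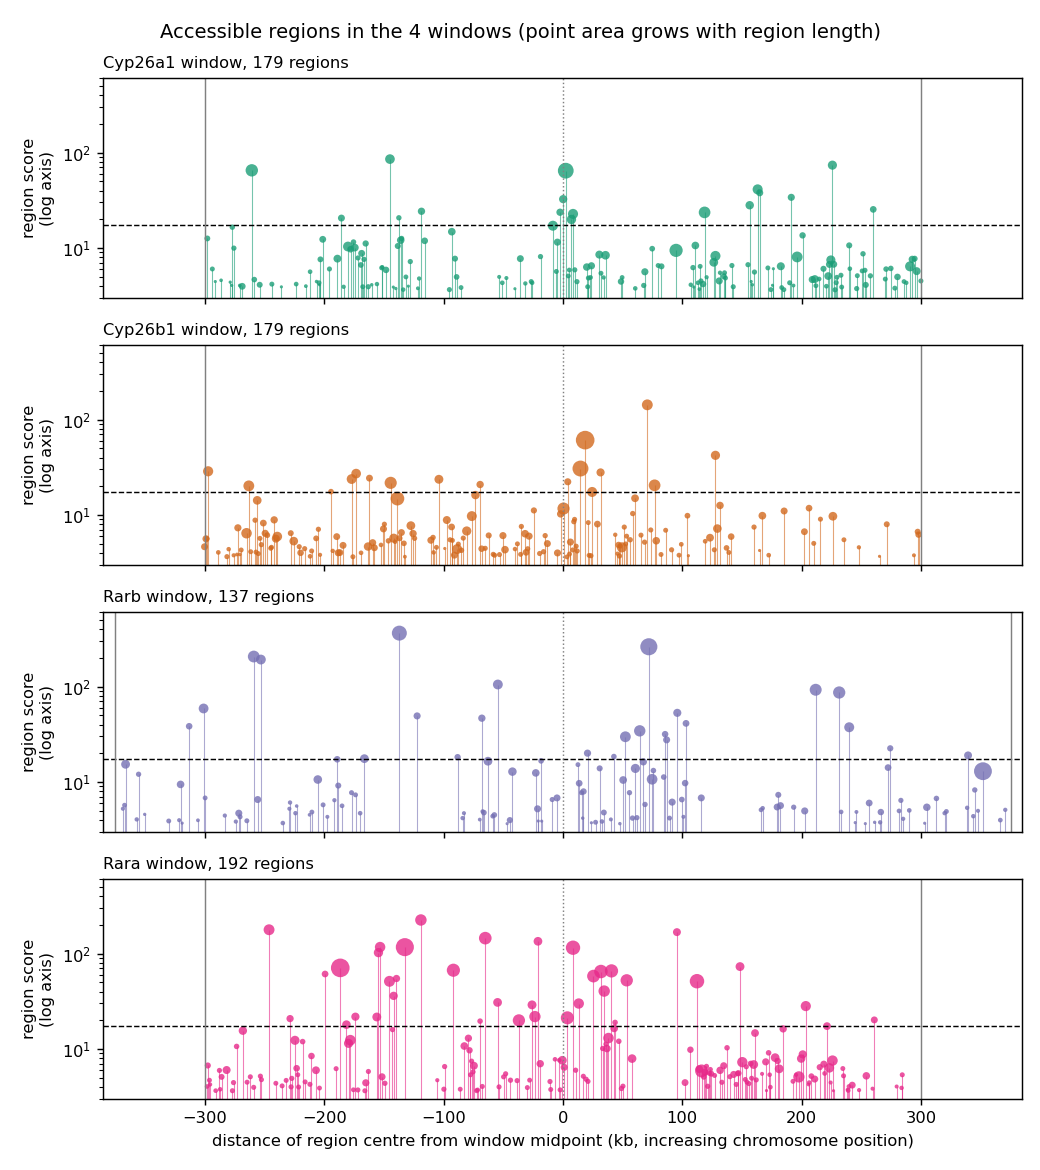
Score of each region (log axis) against the distance of its centre from the window midpoint in kb, with 1 panel a window, points growing with region length, grey lines at the window borders and a dashed line at the top 10% of the list (17.5). Rarb shows few points but the highest (364 and 262), Rara shows 36 points above the line, and both Cyp26 panels show a cluster of large points close to the midpoint.

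Bases in regions were spread unevenly over each window, and the most covered bin held 15.2% of them at Cyp26a1, 19.1% at Cyp26b1, 21.9% at Rarb and 16.2% at Rara. The most covered 50-kb bin ran from 0 to 50 kb at Rara (40.8% of bases), Cyp26b1 (38.1%) and Cyp26a1 (25.4%), and from 50 to 100 kb at Rarb (31.7%). In 48271 consecutive 50-kb pieces of the autosomes the median was 8.03%. These bins exceeded 99.97%, 99.93%, 95.7% and 99.4% of the pieces, in the same order. Each bin is the highest of the 12 to 16 bins of its window, so a high percentile is partly built in, and the bin size was chosen after the positions were seen. With bins of 100 kb the most covered bin moved to 200 to 300 kb at Cyp26a1 (percentile 82.9) and to 100 to 200 kb at Rara (99.1), and the Rarb bin fell to percentile 88.8. Cyp26b1 kept its place under bins of 25, 50 and 100 kb.

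**Figure D3:**
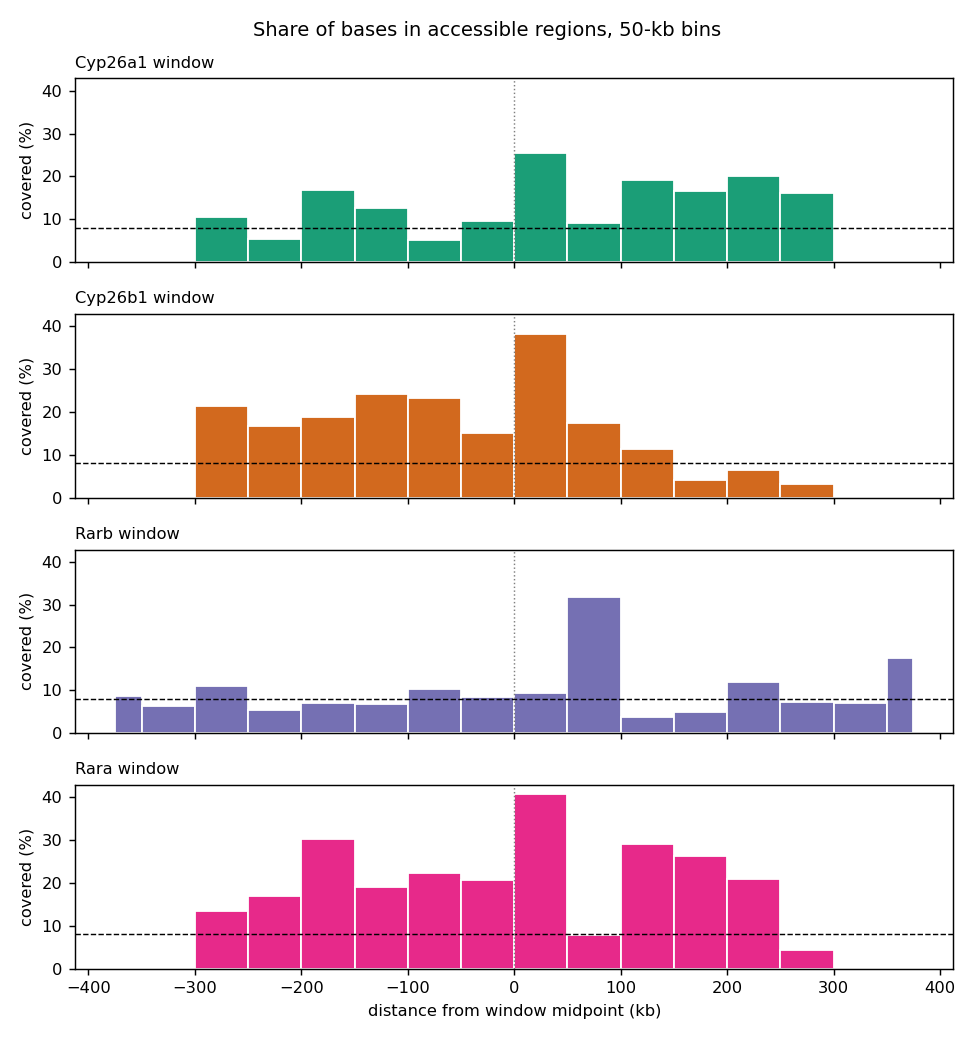
Share of bases inside accessible regions (%) in 50-kb bins by distance from the window midpoint (kb), with the dashed line at the median of 50-kb pieces of the autosomes (8.03%). The tallest bar stands just right of the midpoint at Cyp26a1, Cyp26b1 and Rara and at 50 to 100 kb at Rarb, whose outermost bins are 25 kb wide, with shares taken over that width.

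Long regions were most frequent at Rara. Regions of at least 2000 bases made up 1.22% of the list. They numbered 9 of 192 at Rara (4.69%), 3 of 137 at Rarb (2.19%), 3 of 179 at Cyp26b1 (1.68%) and 2 of 179 at Cyp26a1 (1.12%). At Rara they included chr11:98601313-98605581, the longest of all members at 4269 bases with a score of 70.9, and chr11:98655551-98659561, with 4011 bases and 117. Median lengths were 332 bases at Cyp26a1, 361 at Cyp26b1, 348 at Rarb and 362 at Rara, against 332 in the list. Longer regions tended to score higher: Spearman's rho between length and score was 0.714 at Cyp26a1, 0.653 at Cyp26b1, 0.804 at Rarb and 0.782 at Rara, and 0.728 in the list. These coefficients are across regions of 1 list, in which both values come from the same fragments. Regions in the top 10% had median lengths of 874 bases at Cyp26a1, 1167 at Cyp26b1, 875 at Rarb and 1335 at Rara, against 318, 340, 296 and 329 for the other regions of each window.

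**Figure D4:**
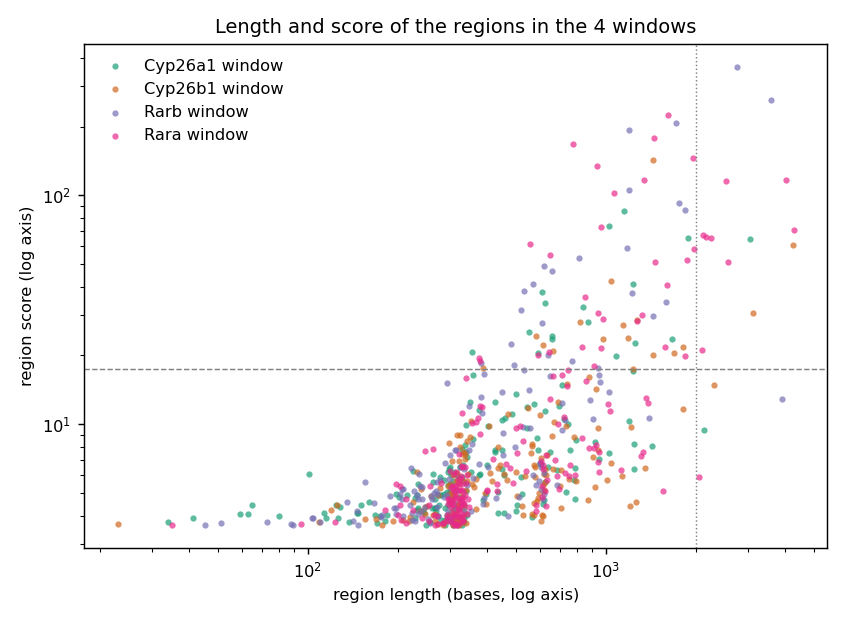
Region score against region length in bases (both log axes) for all 687 regions, coloured by window, with lines at the top 10% of the list (17.5) and at 2000 bases. Longer regions tend to score higher in every window, with wide scatter: the region of 3907 bases at Rarb scored 13.0.

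All 4 genes were transcribed, the enzyme genes at higher FPKM than the receptor genes. Cyp26a1 stood at 133, 165 and 166 FPKM in replicates 1, 2 and 3, and Cyp26b1 at 158, 150 and 151. Rarb stood at 31.1, 29.7 and 29.4 FPKM and Rara at 29.9, 31.0 and 31.0. The ranges of the enzyme genes overlapped each other, as did those of the receptor genes, and the groups were far apart. Means were 155 ± 18.8 (SD, n = 3) for Cyp26a1, 153 ± 4.09 for Cyp26b1, 30.1 ± 0.886 for Rarb and 30.6 ± 0.647 for Rara. The order of RNA levels was thus not the order of scores: the windows with the larger share of high scores were those of the genes with less RNA. With 4 loci this is a description only. Other promoters lay unevenly around the 4 genes. In GRCm38.p6 those of Cdc6 and Cyp26c1 begin at chr11:98907901 and chr19:37685430, near Rara (chr11:98937446) and Cyp26a1 (chr19:37697558). The nearest listed ones beside Cyp26b1 (chr6:84593761), of Dysf and Exoc6b, begin at chr6:84019136 and chr6:85069464. The part of other promoters in the scores was not tested.

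Cyp26a1 and Rara had their lowest value in replicate 1, at 0.803 and 0.964 of the mean of the other replicates. Cyp26b1 and Rarb both stood at 1.05 of that mean. All 8 extraembryonic endoderm markers had their lowest value in replicate 1, with summed levels of 395, 533 and 541 FPKM, none of them listed at 0, while among all genes at 1 FPKM or more in every replicate 36.2% were lowest there. None of the 6 neuronal markers was lowest there, with sums of 2369, 2264 and 2256 FPKM. The part of these cells in the Cyp26a1 values was not tested. The ATAC-seq samples are other libraries, so whether any of them differs in the same way was not analysed here.

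Other genes adjoin each of the 4, so a region cannot be assigned to the named gene by position alone. Neighbours were 5 protein-coding genes on each side of each locus in RefSeq order, among those that the RNA-seq values also list. They were taken at any distance, so some lie outside the windows. In GRCm38.p6 the listed promoter of Rarb begins at chr14:16575427 and that of its neighbour Rpl15 at chr14:18270937. These lie further apart than the 750-kb window is long. Of the 40 neighbours, 28 had at least 1 FPKM in every replicate (70.0%), against 50.7% of all 24002 genes. The 24002 were not limited to protein-coding genes as the neighbours were, so these shares are not of like sets. The count was 7 of 10 around each of the 4 genes. Next to Cyp26a1, its paralogue Cyp26c1, another retinoic acid hydroxylase gene, was low at 2.03, 2.08 and 1.77 FPKM, and Exoc6, of the exocyst complex, stood at 3.96, 4.30 and 4.01. On the other side Myof, a membrane repair gene, stood at 1.30, 1.94 and 1.99. Hhex, a homeobox gene of early endoderm, stood at 0.297 ± 0.0547 FPKM (SD, n = 3). No neighbour thus came near the level of Cyp26a1, and the highest was Rbp4, the plasma retinol carrier gene, at 29.3, 38.6 and 35.8.

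The nearest of the listed neighbours of Cyp26b1 are Dysf and Exoc6b. Dysf, the dysferlin gene of muscle, stood at 0.489, 0.532 and 0.638 FPKM, and Exoc6b, of the exocyst complex, at 12.8, 12.4 and 12.7. Beside Rarb, Top2b, which encodes the topoisomerase II of non-dividing cells, was higher than Rarb itself at 58.5, 56.9 and 56.9 FPKM. Ngly1, which encodes a deglycosylating enzyme, stood at 4.19, 4.15 and 4.29. Thrb, the thyroid hormone receptor gene on the other side, was low at 0.0623, 0.115 and 0.0731. The neighbours of Rarb thus ranged from almost silent to more abundant than Rarb.

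Some neighbours of Rara stood at its own level, though 7 of 10 reached 1 FPKM in every replicate, as around each other gene. Casc3, of the exon junction complex, stood at 30.6, 31.4 and 31.1 FPKM, Msl1, of a histone acetyltransferase complex, at 34.9, 35.1 and 34.6, and Igfbp4, which encodes an IGF binding protein, at 30.2, 31.2 and 31.2. Each of these is close to Rara itself. The proliferation gene Top2a stood at 20.1, 20.9 and 20.7 and the replication licensing gene Cdc6 at 2.09, 1.92 and 2.14. Gjd3, a connexin gene and the first of the listed neighbours after Rara, stood at 0.712, 0.772 and 0.712. The chemokine receptor gene Ccr7 was listed at 0 in replicates 1 and 2.

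**Figure D5:**
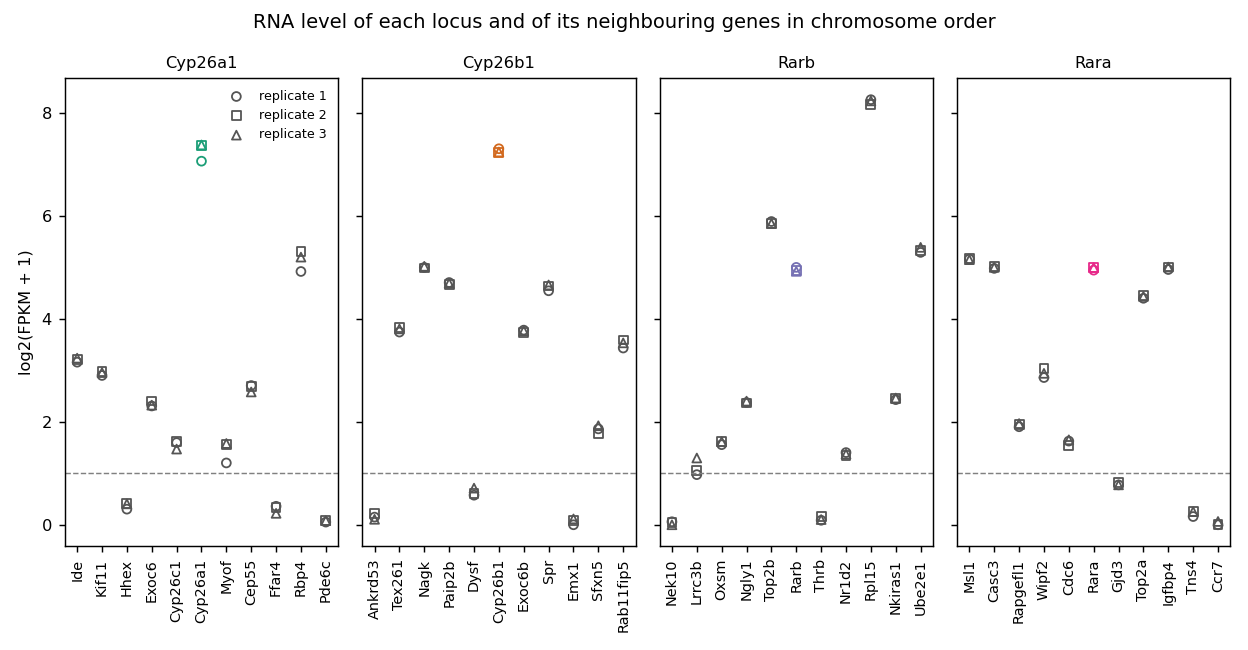
log2(FPKM + 1) of each of the 4 genes (coloured) and of its 5 neighbouring protein-coding genes on each side in RefSeq order, with 1 symbol a replicate and the dashed line at 1 FPKM. Cyp26a1 and Cyp26b1 stand above all their neighbours, Rarb stands below Top2b, Rpl15 and Ube2e1, and Rara stands level with Msl1, Casc3 and Igfbp4.

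Of 20 other genes of retinoic acid signalling, 18 had at least 1 FPKM in every replicate, against the background of 50.7%. The receptor partner genes Rxra, Rxrb and Rxrg stood at 10.2 ± 0.503, 20.0 ± 0.531 and 5.12 ± 0.531 FPKM (SD, n = 3), and Rarg at 3.70 ± 0.621. The corepressor gene Ncor1 stood at 21.8 ± 0.533, and Nrip1, which encodes a ligand-dependent corepressor, at 8.50 ± 0.449. The receptor genes Rara and Rarb were thus above every RXR gene in mean FPKM. The synthesis genes Rdh10 (15.2 ± 2.89) and Aldh1a2 (11.0 ± 0.238) were present, and Aldh1a1 and Aldh1a3 were below 1 FPKM.

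The window borders were placed by position, and 1 region crosses the right border at Cyp26a1 and 1 the left border at Cyp26b1. They score 4.50 and 4.63. The region just outside the right border at Rara, chr11:99090902-99092651, scored 50.2, and the last one inside 5.36. The other 7 regions just outside a border scored between 3.73 and 8.50.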

How the data were processed

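Accessible chromatin was profiled in 3 ATAC-seq samples and polyadenylated RNA in 3 RNA-seq samples, grouped by their titles. Per the submitters' processing notes, Bowtie and Cufflinks were used with the build mm9. Their versions, the region caller, its threshold, the Tn5 offset and pooling are stated by no label or header. The score of each region is the authors' deposited value on an unstated scale. The RNA-seq values were read as FPKM, because the authors' deposited table names no unit and Cufflinks writes FPKM. Read depth is unknown for both, so no counting interval is given, and the labels do not say that replicates were separate cultures.

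Regions overlapping a window by at least 1 base were taken with Python 3.11.15 (pandas 2.3.3, numpy 2.4.6), and coordinates were written 1-based. Percentiles are among consecutive pieces between the first and last region of each autosome, with regions placed by their centre. Genes and regions were named by rule: in each window the 5 highest scores, the longest, the shortest, the one nearest the midpoint and the highest of each run; the 4 genes, 5 neighbours a side, a retinoic acid list and markers. 1 gene of that list is not reported here. Other long regions were named after their values were seen. Members and lists were chosen with earlier results of these data known. RefSeq names, gene order and promoters are from GRCm38.p6. With 1 condition, no test between groups was made. The counting and motif steps were tested on simulated data. Alternatives were other overlap rules, score minima, merging, narrower windows, other FPKM thresholds, scalings and pseudocounts, left-out replicates and other hexamers.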

Additional observations from a re-analysis of the deposited data

How the results depend on the processing

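No paired analysis was possible because no result comes from a test between groups, and the ATAC-seq samples have no values of their own. The region counts hardly changed with the overlap rule (685 or 686 of 687) or with regions within 200 bases merged (672). Regions at or above the median score of the list numbered 92 at Cyp26a1, 95 at Cyp26b1, 76 at Rarb, 113 at Rara and 376 in all, and those in the top 10% numbered 17, 16, 24, 36 and 93, fewer by construction. The share in the top 5% was 4.47% at Cyp26a1, 1.68% at Cyp26b1, 10.9% at Rarb, 11.5% at Rara and 6.99% in all, and in the top 1% it was 0%, 0%, 2.92%, 1.56% and 1.02%. In these shares the order of receptor above enzyme windows held at each score limit, within each chromosome's own scores and after merging. At the median the shares lay close together. Within 100 kb of the midpoint, density was 22 regions per 100 kb at Cyp26a1, 39.0 at Cyp26b1, 27.0 at Rarb and 29.5 at Rara, so Cyp26b1 led there, Rarb rose above the genome median of 20.5 and Cyp26a1 fell to the lowest of the 4. At 5 FPKM, 17 of 40 neighbours were expressed, against 35.7% of all genes, which were not limited to protein-coding ones. With the hexamers AGGTCA and AGTTCA alone, 1 of the 4 genes, Cyp26a1, held the repeat with a spacing of 5. Without 1 replicate, the mean of Cyp26a1 ranged from 149 to 166 FPKM. The RNA means moved by less than 1 SD under the other scaling and both pseudocounts tried. Leaving out 1 of 3 replicates cannot move a mean by 1 SD, so those values say nothing about stability.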

Other observations

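Region lengths piled up at particular values, in the windows as in the list. Lengths from 280 to under 350 bases made up 29.8% of the 687 regions and 26.4% of the list, and the share was 38.0% at Rara, 34.6% at Cyp26b1, 28.5% at Cyp26a1 and 13.9% at Rarb. A second accumulation lay at 550 to under 670 bases, with 12.1% of the members and 10.6% of the list. None of the 205 members of 280 to under 350 bases was in the top 10% of scores, against 50 of the 79 members of at least 1000 bases (63.3%). In the list the shares were 0.317% and 54.6%, so the members lay near the list at these lengths. Rarb held more regions under 280 bases (37.2%) than Rara (11.5%), with the list at 28.7%. These length classes were chosen after the lengths were seen.

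Scores came in steps. Of the 495233 regions, 76.8% had a score that at least 1 other region of the list shared exactly, and so did 64.5% of the members. The commonest score, 3.65, was given to 5044 regions of the list and to 9 of the members. Shared values were not limited to weak regions: chr19:37932518-37933751 of 1234 bases, the fifth highest at Cyp26a1, and a region of 568 bases at 103 kb in the Rarb window both scored 41.2. Ranks among low scores therefore rest on many ties.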
